A study of Mus musculus with 6 samples.

Results

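The epidermal differentiation transcription factors described here are 10 genes, Trp63, Klf4, Klf5, Grhl1, Grhl3, Ovol1, Zfp750, Prdm1, Tfap2a and Gata3, which code for DNA-binding regulators of the epidermal layers. They were taken by gene name from a table of 54532 genes, and all 10 were found and passed the filter on low counts that left 13157 genes to test. The study profiled cells from dissociated dorsal epidermis of 4-week-old C57BL/6 mice of both sexes. NCAM-enriched cells, which the labels name as Merkel cells (the touch-sensing neuroendocrine cells of the basal epidermis), were bound to beads against PSA-NCAM and then sorted as positive for NCAM and negative for the dead-cell dye DAPI. Bulk skin cells were sorted from the same kind of suspension on absence of DAPI alone. Each group had 3 libraries of 500 sorted events, made by Smart-seq2, a full-length cDNA protocol. Neither group carried a transgene or received an agent. The sources do not say whether the 3 libraries of a group came from separate animals, so the p-values measure only the spread between libraries, which may be technical.

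The epidermis renews itself from a basal layer whose daughter cells leave the basement membrane, stop dividing and cornify. Trp63 codes for p63, which establishes and maintains the basal keratinocyte of stratified epithelia. Zfp750 is induced by p63 and, with Klf4, Grhl3, Ovol1 and Prdm1, acts in the suprabasal program that builds the skin barrier, whereas Klf5 and Tfap2a are known from proliferating and early epidermis. Gata3 acts in barrier lipid synthesis and in the hair follicle, and it is also a lineage factor of T cells.

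Promoter sequences of the members are shown because several of these factors bind short motifs that can be looked for upstream of the others. The mouse RefSeq promoter table (GRCm38.p6) matched 6 of the 10 members, with 8 start sites. The letters of 5 motifs were searched on both strands in the 250 bases upstream of each start, and each is given with the share of all 32851 windows that held it. These were AACCNGTT for the GRHL family (1.79%), AGATAA for the GATA family (9.99%), CCACCC for the KLF family (28.1%), GCCNNNGGC for the TFAP2 family (13.7%) and GTGAAAG for PRDM1 (3.57%). Matches are in capitals in the windows of Grhl3 (chr4:135573633-135573882, minus strand), the first start of Grhl1 (chr12:24572037-24572286, plus strand), Klf4 (chr4:55532476-55532725, minus strand) and Gata3 (chr2:9878601-9878850, minus strand), written 5′ to 3′ toward the start site.
Grhl3: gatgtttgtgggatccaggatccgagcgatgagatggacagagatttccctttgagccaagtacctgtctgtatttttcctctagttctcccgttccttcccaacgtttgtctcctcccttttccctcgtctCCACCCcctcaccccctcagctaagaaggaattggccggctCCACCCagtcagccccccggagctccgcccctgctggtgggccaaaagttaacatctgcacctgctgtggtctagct
Grhl1: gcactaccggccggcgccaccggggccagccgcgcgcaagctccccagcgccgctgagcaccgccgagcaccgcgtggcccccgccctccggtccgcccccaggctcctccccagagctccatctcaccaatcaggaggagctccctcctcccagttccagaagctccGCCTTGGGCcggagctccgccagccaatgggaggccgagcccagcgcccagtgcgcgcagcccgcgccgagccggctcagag
Klf4: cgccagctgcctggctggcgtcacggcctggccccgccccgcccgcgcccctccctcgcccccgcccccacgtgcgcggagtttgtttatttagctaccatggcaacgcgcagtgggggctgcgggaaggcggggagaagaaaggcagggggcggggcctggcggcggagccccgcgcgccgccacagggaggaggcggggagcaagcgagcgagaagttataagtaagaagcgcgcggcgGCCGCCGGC
Gata3: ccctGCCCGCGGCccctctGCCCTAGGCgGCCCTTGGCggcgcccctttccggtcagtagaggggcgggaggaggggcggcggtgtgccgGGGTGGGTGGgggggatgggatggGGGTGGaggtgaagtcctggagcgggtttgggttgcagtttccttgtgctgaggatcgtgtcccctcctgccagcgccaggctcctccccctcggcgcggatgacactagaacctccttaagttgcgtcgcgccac
The Grhl3 window held 2 KLF matches, 77 to 72 and 118 to 113 bases upstream of the start. The Grhl1 window held 1 TFAP2 match at 82 to 74 bases upstream, and that of its second start held 1 KLF match. Klf4 had 1 TFAP2 match in the last 9 bases before its start. Gata3 had 3 TFAP2 matches and 3 KLF matches, of which a pair overlapped by 2 bases. The windows of Prdm1 and Tfap2a held none of the motifs, and no member window held the GRHL, GATA or PRDM1 letters. The windows of Klf4 and Gata3 and the first of Grhl1 were rich in G and C, at 74.0%, 70.0% and 75.6% against a median of 52.4% over all windows. A match describes letters only and is not a binding site.

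Library totals ran from 1343190 to 3798136 counts in the NCAM-enriched group and from 3333753 to 4481830 in bulk skin, so that 1 count was worth 0.216 to 0.773 CPM (counts scaled to a normalised library of 1000000 reads). Merkel cell markers (10 genes, among them Atoh1 and Krt20) summed to 482 to 1674.3 CPM in NCAM-enriched and 133 to 186 CPM in bulk skin libraries, and 5 of the 10 rose by edgeR (10 at an unadjusted p below 0.05, 10 called by DESeq2, and 2 called when libraries were scaled to epithelial genes). T and NK cell markers (12 genes) summed to 111 to 241 CPM against 5451.1 to 6010.3 CPM and 8 of the 12 fell. Langerhans and myeloid cell markers (10 genes) summed to 185 to 736 CPM against 10752.6 to 18225.9 CPM and 8 of the 10 fell, and red blood cell genes fell in 4 of 4 tested. Epcam, a gene of the Langerhans and myeloid list, lay above 0 (log2 fold change 0.40). At 389, 132 and 413 CPM it made up much of that list's sum in the NCAM-enriched libraries. NCAM-enriched replicate 2 stood apart within its group, with 33566.1 CPM of fibroblast markers against 387 and 41.7 CPM in replicates 1 and 3. Bulk skin libraries held 13463.4, 18517.0 and 10505.0 CPM of the same markers. Suprabasal keratinocyte genes, at 14875.4 to 39948.1 CPM in the NCAM-enriched libraries, exceeded the Merkel cell markers in each of them.

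Zfp750, Ovol1 and Grhl3 were higher in NCAM-enriched than in bulk skin libraries. They rose by 6.46-fold, 7.38-fold and 5.74-fold, and none of the 10 members fell in edgeR's quasi-likelihood test at an adjusted p of 0.05 over all genes. Among all genes tested, 1.04% were called higher and 1.55% lower. The remaining 7 members did not pass, although 6 of the 10 had an unadjusted p below 0.05, all 6 of them higher in NCAM-enriched libraries. Over all genes, 2493 of the 13157 tested had an unadjusted p below 0.05, in either direction. No member was lower at that unadjusted threshold, and DESeq2 and limma-voom called no member lower either. The median log2 fold change of the members was 1.32, against -0.07 over all genes tested, and 9 of the 10 values lay above 0. In 7 members every NCAM-enriched library lay above every bulk skin library, an arrangement found in 11.1% of all genes tested, and in 0 members did every NCAM-enriched library lie below, as it did in 19.3% of all genes. Libraries of both groups held markers of several cell types. The number of cells of a type and the RNA per cell therefore cannot be told apart in any of these values. Which cells of the NCAM-enriched libraries carried the factors was not tested.

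**Figure D1:**
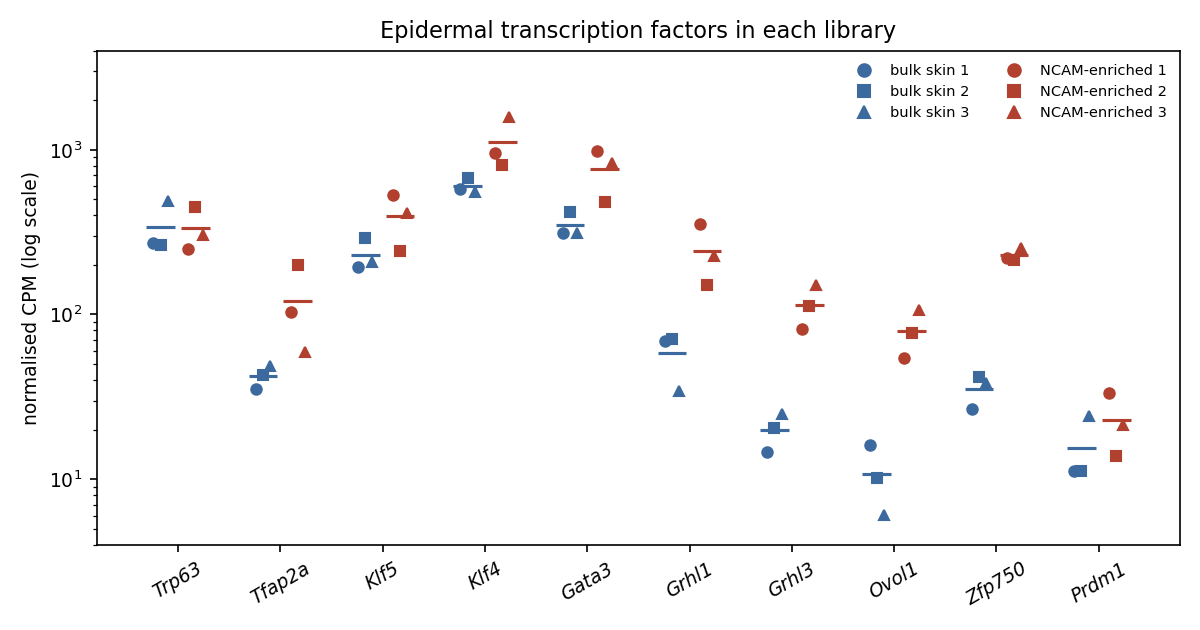
CPM (log axis) of the 10 factors in the 3 NCAM-enriched and 3 bulk skin libraries, with symbols for replicates 1 to 3 and a short bar for each group's mean. The groups are separated for Zfp750, Grhl3, Ovol1, Grhl1, Gata3, Tfap2a and Klf4, and they overlap for Trp63, Klf5 and Prdm1.

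Zfp750 (ENSMUSG00000039238, chr11:121510978-121519333, minus strand, GRCm38) codes for a zinc-finger protein that turns on terminal differentiation genes. Its level was 220, 213 and 255 CPM in the NCAM-enriched libraries and 26.7, 41.5 and 38.1 CPM in bulk skin. Each NCAM-enriched library was thus at or above 213 CPM while none of the bulk skin libraries passed 41.5 CPM. On the log2 scale the difference was 2.69 ± 0.37 (SE; Benjamini-Hochberg adjusted p = 0.014, edgeR). It was also the most even member within the NCAM-enriched group, with a coefficient of variation of 9.73%, against 59.3% for Tfap2a.

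Grhl3 (ENSMUSG00000037188, chr4:135541888-135573630, minus strand), whose promoter with the 2 KLF matches is given above, is a grainyhead-like factor required for barrier formation and epidermal closure. It measured 81.8, 113 and 150 CPM in NCAM-enriched libraries and 14.6, 20.3 and 24.9 CPM in bulk skin. The lowest NCAM-enriched library was more than 3 times the highest bulk skin library. The log2 fold change was 2.52 ± 0.47 (SE; edgeR adjusted p = 0.0332). Its relative Grhl1 (ENSMUSG00000020656, chr12:24572283-24617391, plus strand), which acts on desmosomal cadherin genes, measured 357, 150 and 227 CPM against 69.2, 71.1 and 34.3 CPM. The groups did not overlap for Grhl1 either, and its log2 fold change of 2.07 ± 0.47 had an adjusted p of 0.0575 by edgeR, just past the threshold. DESeq2 and limma-voom called Grhl1, with adjusted p of 0.00201 and 0.0162.

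Ovol1 (ENSMUSG00000024922, chr19:5549136-5560646, minus strand), a zinc-finger repressor that helps keratinocyte progenitors leave the cell cycle, measured 54.2, 77.3 and 107 CPM in NCAM-enriched and 16.1, 10.2 and 6.03 CPM in bulk skin libraries. It was the scarcest of the called members, with 580 reads in all NCAM-enriched libraries and 121 in all bulk skin libraries, and the groups stood clear of each other. The log2 fold change was 2.88 ± 0.61 (SE; edgeR adjusted p = 0.0479). In the GENCODE annotation 22.0% of its exonic bases are shared with 2 genes of the opposite strand, and Smart-seq2 does not mark the strand. One of them, Gm31166, had 0 counts in 5 libraries and 6 in bulk skin replicate 2, and the other was not found by name among the deposited genes.

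Prdm1 (ENSMUSG00000038151, chr10:44437177-44528501, minus strand), which codes for the repressor BLIMP1 of the granular layer and of mature lymphocytes, was at the other end. It measured 33.5, 13.9 and 21.3 CPM in NCAM-enriched and 11.2, 11.2 and 24.1 CPM in bulk skin libraries. These ranges overlapped, and the log2 fold change was 0.56 ± 0.80 (SE; edgeR adjusted p = 0.775), an error too wide to tell a fall from a rise.

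Klf4 (ENSMUSG00000003032, chr4:55527143-55532466, minus strand) codes for a zinc-finger factor that the skin barrier requires. It was the most abundant member in both groups, at 952, 812 and 1584.5 CPM in NCAM-enriched libraries and 577, 671 and 551 CPM in bulk skin. All NCAM-enriched libraries were higher, but the log2 fold change of 0.90 ± 0.40 did not pass the threshold (SE; edgeR adjusted p = 0.272). Klf5 (ENSMUSG00000005148, chr14:99298691-99315036, plus strand), known from proliferating epithelium, measured 533, 243 and 414 CPM against 193, 290 and 207 CPM. NCAM-enriched replicate 2 fell within the bulk skin range for Klf5, and the log2 fold change of 0.79 ± 0.40 did not pass (edgeR adjusted p = 0.337).

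Gata3 (ENSMUSG00000015619, chr2:9857078-9890034, minus strand) measured 989, 484 and 827 CPM in the NCAM-enriched libraries and 313, 417 and 313 CPM in bulk skin. The groups did not overlap, but replicate 2 of the NCAM-enriched group and replicate 2 of bulk skin were close. The log2 fold change was 1.14 ± 0.40 (SE; edgeR adjusted p = 0.158), and DESeq2 gave an adjusted p of 0.0488. Gata3 is also expressed by T cells, whose markers moved the other way, from 5451.1 to 6010.3 CPM in bulk skin down to 111 to 241 CPM, and the part of T cells in the Gata3 value was not tested. Tfap2a (ENSMUSG00000021359, chr13:40715302-40738376, minus strand), an early regulator of surface ectoderm, measured 103, 199 and 59.3 CPM against 35.1, 42.8 and 48.8 CPM. All NCAM-enriched libraries were higher for Tfap2a, with replicate 3 only slightly so. Its log2 fold change was 1.5 ± 0.52 (SE; edgeR adjusted p = 0.153), and NCAM-enriched replicate 2 at 199 CPM carried much of it. Without replicate 3 the Tfap2a value was 1.76 (adjusted p = 0.0455), without replicate 2 it was 0.92 (adjusted p = 0.221), and without any 1 other library the adjusted p was 0.179 to 0.388. In the GENCODE annotation 5.83% of the exonic bases of Gata3 and 14.6% of those of Tfap2a are shared with other genes. Those sharing bases with Tfap2a had 0 to 39 counts each in a library, against 113 to 257 for Tfap2a. The effect of this overlap was not tested.

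Trp63 (ENSMUSG00000022510, chr16:25683763-25892102, plus strand) had the smallest difference of the 10. It measured 250, 451 and 302 CPM in NCAM-enriched and 270, 264 and 488 CPM in bulk skin libraries, or 334 ± 104 and 341 ± 128 CPM (SD, n = 3 each). Each group held 1 library well above the other two, and the ranges overlapped almost wholly. The log2 fold change was -0.03 ± 0.41 (SE, edgeR adjusted p = 0.982). That error is not a detection limit, since edgeR did not call Grhl1 at 2.07 ± 0.47. A Trp63 change larger than its error could also have been missed. The counts are per gene and do not separate the TA and deltaN isoforms of p63.

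**Figure D2:**
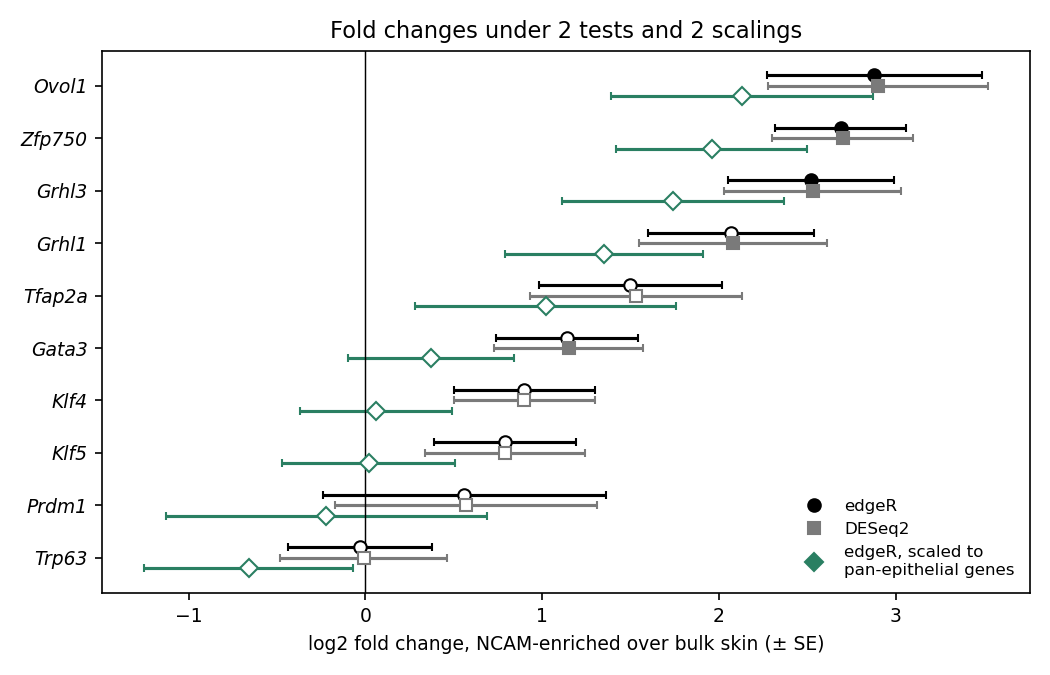
Log2 fold change (NCAM-enriched against bulk skin) of each of the 10 factors with its standard error, filled where the adjusted p was at or below 0.05. Circles are edgeR, squares are DESeq2 and diamonds are edgeR scaled to epithelial genes. The circles of Zfp750, Grhl3 and Ovol1 are filled, that of Grhl1 lies beside them at 2.07 and that of Trp63 at -0.03. The squares of Zfp750, Grhl3, Ovol1, Grhl1 and Gata3 are filled, and no diamond is.

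The sizes of these differences, and some directions, changed with the scaling of the libraries. Scaling to 9 epithelial genes (Cdh1, Jup, Dsp, Perp, Esrp1, Esrp2, F11r, Krt5 and Krt14), all of which lay above 0 in the first scaling with a median of 1.04, moved the median of all genes from -0.07 to -0.82. It also moved the split over all genes from 137 higher and 204 lower to 70 higher and 846 lower. Under this scaling 4 members kept an unadjusted p below 0.05 in edgeR, as did 3074 of 13157 genes in either direction. Of the members, 0 passed the adjusted threshold, while 0.532% of all genes were called higher. Zfp750 came closest, with a log2 fold change of 1.96 ± 0.54 (SE; edgeR adjusted p = 0.0544). Ovol1 measured 2.13 (adjusted p = 0.11), Grhl3 1.74 (adjusted p = 0.125) and Grhl1 1.35 (adjusted p = 0.179). Klf4 and Klf5 were then near 0, at 0.06 and 0.02, and Prdm1 at -0.22 and Trp63 at -0.66 were below it. Relative to the median of all genes in the same scaling, Zfp750 stood at 2.78, Ovol1 at 2.95, Grhl3 at 2.56, Klf4 at 0.88 and Trp63 at 0.15. Subtracting that median largely undoes the scaling. These values are therefore close to those of the first scaling by construction and are not a separate check.

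The count of called members also moved with the tool and with single libraries. DESeq2 called 5 members higher (5.02% of all genes), adding Grhl1 and Gata3, and limma-voom called 4 (2.67%), adding Grhl1. Without NCAM-enriched replicate 1, Zfp750 and Grhl3 were called (0.422% of all genes), and without replicate 2, the library with the high fibroblast marker level, 5 members were called (3.09%), Ovol1, Grhl1 and Gata3 beside them. Without NCAM-enriched replicate 3 the 4 called members were Zfp750, Grhl3, Grhl1 and Tfap2a (7.35%). Leaving out bulk skin replicate 1, 2 or 3 left 0 members called by edgeR, and 0.0%, 0.0% and 0.00678% of all genes called higher. In these fits 4, 5 and 5 members had an unadjusted p below 0.05. Of all genes, 2115 of 15144, 2237 of 14871 and 2178 of 14741 did, in either direction. Over 14 alternatives the log2 fold change ran from 1.96 to 2.77 for Zfp750, 1.74 to 2.71 for Grhl3, 2.13 to 3.24 for Ovol1 and 1.35 to 2.31 for Grhl1. It ran from 0.92 to 1.76 for Tfap2a, 0.37 to 1.37 for Gata3, 0.06 to 1.07 for Klf4 and 0.02 to 1.03 for Klf5, and it crossed 0 for Prdm1 (-0.22 to 0.98) and Trp63 (-0.66 to 0.26).

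Each factor was also set against Trp63 in the same library, as a log2 ratio of counts plus 0.5. This puts Trp63 in place of the library scaling, and all 9 ratios share it as denominator. Trp63 itself had a log2 fold change of -0.03 in the first scaling. The ratios therefore stay close to the fold changes of that scaling and are not a separate check. The NCAM-enriched and bulk skin libraries did not overlap for 5 of the 9 factors, whereas 9.05% of all genes tested had a ratio to Trp63 that was higher without overlap. Zfp750 stood at -0.18, -1.08 and -0.25 in NCAM-enriched and -3.33, -2.66 and -3.67 in bulk skin libraries. The ratio of Zfp750 to Trp63 was thus 6.59-fold higher in the former. The ratio of Grhl3 was 5.72-fold higher, that of Ovol1 7.65-fold, that of Grhl1 4.18-fold and that of Tfap2a 2.56-fold. Each of these 5 had an exact two-sided permutation p of 0.1, the smallest that 3 against 3 libraries can give, and a Benjamini-Hochberg adjusted value of 0.18 over the 9 ratios. With any 1 library left out, the difference in log2 ratio stayed between 2.49 and 3.01 for Zfp750, 2.25 and 2.75 for Grhl3, 2.29 and 3.42 for Ovol1, 1.43 and 2.61 for Grhl1 and 1.14 and 1.73 for Tfap2a. The ratio of Klf4 to Trp63 was 1.72 ± 0.79 against 0.87 ± 0.62 (SD, n = 3 each, exact permutation p = 0.3), and those of Klf5, Gata3 and Prdm1 also overlapped (p = 0.4, 0.3 and 0.4).

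**Figure D3:**
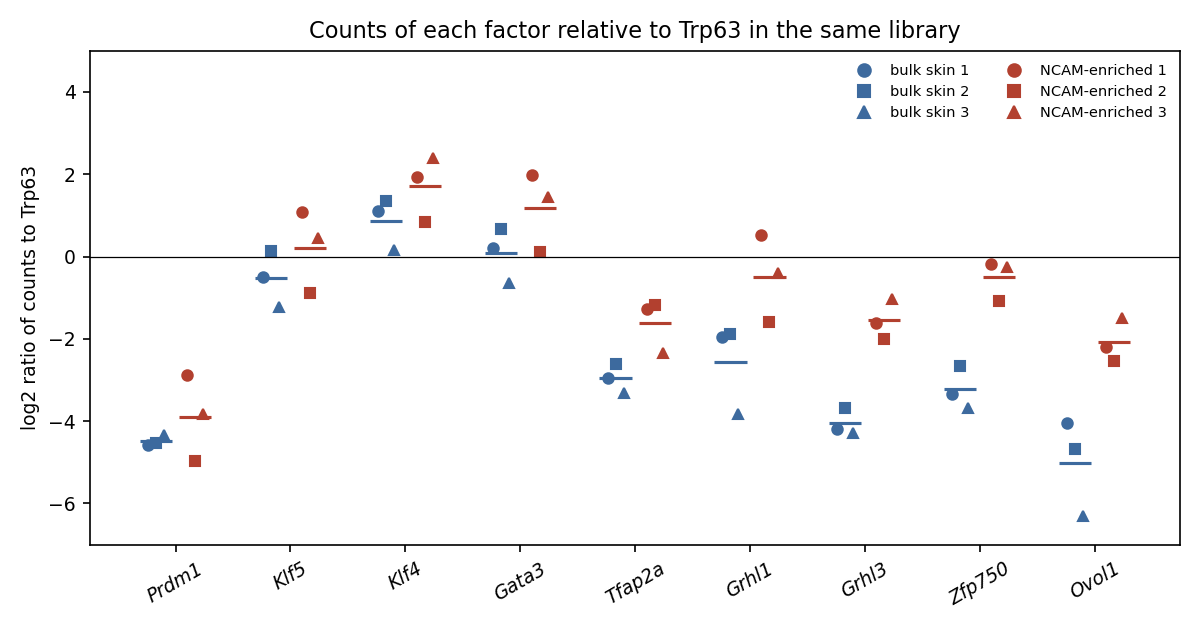
Log2 ratio of the counts of each factor to those of Trp63 within each library (0 is an equal count), for 3 NCAM-enriched and 3 bulk skin libraries. The groups are apart for Grhl1, Grhl3, Ovol1, Zfp750 and Tfap2a, and they overlap for Klf4, Klf5, Prdm1 and Gata3.

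Levels of different genes were compared per kilobase of exonic sequence. In NCAM-enriched libraries Klf4 led with 366 ± 135 CPM per kb (SD, n = 3), followed by Gata3 at 193 ± 64.8, Klf5 at 76.2 ± 28.1, Zfp750 at 71.0 ± 6.9, Grhl1 at 44.2 ± 18.9 and Grhl3 at 41.1 ± 12.2 CPM per kb. Trp63 followed at 39.9 ± 12.5, Tfap2a at 24.5 ± 14.5, Ovol1 at 22.8 ± 7.63 and Prdm1 at 4.1 ± 1.77 CPM per kb. Neighbours whose ranges over libraries were apart were Klf4 and Gata3, Gata3 and Klf5, Zfp750 and Grhl1, and Ovol1 and Prdm1, while the other neighbours in the order could not be separated. In bulk skin libraries the order opened with the same genes, Klf4 at 197 ± 20.8, Gata3 at 87.4 ± 15.0 and Klf5 at 44.2 ± 10 CPM per kb. Trp63 came next at 40.6 ± 15.2, clear of Zfp750 at 11 ± 2.4, and was followed by Grhl1 at 10.5 ± 3.75 and Tfap2a at 8.61 ± 1.4 CPM per kb. Grhl3 at 7.15 ± 1.86, Ovol1 at 3.09 ± 1.46 and Prdm1 at 2.78 ± 1.34 CPM per kb closed the bulk skin order. Trp63 was at rank 4 of the members in bulk skin and at rank 7 in NCAM-enriched libraries.

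Markers of the epidermal layers were read beside the factors. Suprabasal and cornifying keratinocyte genes (20 listed, 18 tested) rose in 10 cases and fell in none (edgeR, 15 higher and 0 lower at an unadjusted p below 0.05), with a median log2 fold change of 3.72. Their summed level was 39948.1, 14875.4 and 22585.5 CPM in NCAM-enriched libraries and 1821.6, 2050.0 and 2133.8 CPM in bulk skin. Krt77, a keratin of the suprabasal layers, measured 10182.6, 4811.2 and 7396.8 CPM against 274, 313 and 330 CPM. Basal keratinocyte genes (12 genes, among them Krt5 and Krt15) had 0 calls in edgeR, with 0 higher and 1 lower at an unadjusted p below 0.05, 1 lower by DESeq2 and a median of 0.05. Their sum was 10527.4, 8619.4 and 32596.8 CPM against 17387.3, 15434.6 and 13122.5 CPM, overlapping between groups as Trp63 did. What part the keratinocyte makeup of the sorted cells had in the levels of the factors was not tested.

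**Figure D4:**
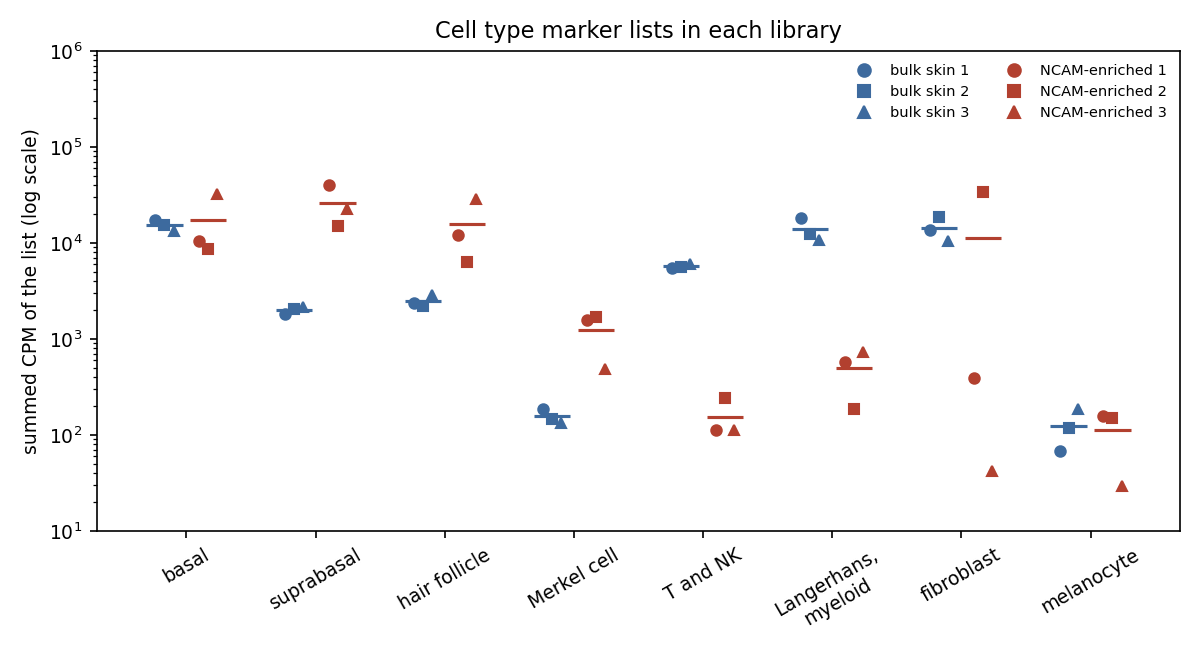
Summed CPM (log axis) of marker lists in each library of both groups. Suprabasal, hair follicle and Merkel cell lists lie higher in the NCAM-enriched libraries, T and NK cell and Langerhans and myeloid cell lists lie lower, and basal keratinocyte genes overlap. Of the 7 hair follicle genes tested, 3 lay above 0 in log2 fold change and 4 below.

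Genes that the factors are known to act on include keratins, envelope proteins and cell adhesion genes. Of 22 listed and tested, Krt10, Ivl and Flg rose and none fell (edgeR, 13 higher and 0 lower at an unadjusted p below 0.05; DESeq2 called 10 higher and 0 lower), with a median log2 fold change of 1.63. Ivl, which codes for involucrin of the cornified envelope, measured 526, 97.4 and 375 CPM in NCAM-enriched and 11.2, 33.5 and 31.0 CPM in bulk skin libraries, a log2 fold change of 3.72 ± 0.70 (SE; edgeR adjusted p = 0.0338). Krt10, a suprabasal keratin, measured 10220.3, 5380.6 and 3061.5 CPM against 405, 464 and 323 CPM (log2 fold change 3.97 ± 0.62, edgeR adjusted p = 0.019). Flg, the filaggrin precursor gene, had 116, 12.4 and 61.6 CPM against 0 counts in all bulk skin libraries. The NCAM-enriched mean was 243-fold above a bulk skin level of 3 counts over the group. That figure allows for counting error in bulk skin only, not for the spread among the NCAM-enriched libraries. Krt5, a basal keratin under p63, measured 2201.4, 2439.2 and 9004.2 CPM against 4103.0, 3962.0 and 3570.8 CPM, and its groups overlapped. Flg, Ivl and Krt10 are also among the suprabasal genes, so these lists are not separate evidence.

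The members' closest relatives were taken as a list of paralogues. Of 18 paralogues, 16 were tested, as Gata1 and Sp6 had too few counts. For Sp6, 86.67% of the exonic bases are shared with a gene of the opposite strand, and the effect on its count was not tested. Of the 16 tested, 0 were called in either direction by edgeR, with 2 higher and 0 lower at an unadjusted p below 0.05 and a median log2 fold change of -0.11. DESeq2 and limma-voom each called 1 higher, Klf3. Scaled to the epithelial genes, which moved the median of all genes to -0.82, edgeR gave the reverse split, 0 higher and 4 lower at an unadjusted p below 0.05, with 1 paralogue called lower and a median of -0.99. Klf3, a repressor of the family of Klf4, measured 424, 253 and 463 CPM in NCAM-enriched and 127, 133 and 206 CPM in bulk skin libraries (log2 fold change 1.29 ± 0.39, edgeR adjusted p = 0.111). Klf6, the most abundant paralogue here, measured 416, 598 and 779 CPM against 668, 797 and 757 CPM, with overlap. Tfap2b, the neighbour of Tfap2a in its family, had a log2 fold change of 1.13 ± 0.42 (edgeR adjusted p = 0.192). Grhl2, the grainyhead-like factor of epithelial junctions, measured 27.6, 138 and 75.2 CPM against 46.3, 42.8 and 67.4 CPM, and overlapped where Grhl1 and Grhl3 did not. Trp53, the relative of Trp63, measured 87.1, 27.8 and 140 CPM against 221, 201 and 158 CPM, all NCAM-enriched libraries being lower (log2 fold change -1.18 ± 0.55, edgeR adjusted p = 0.292). It was the paralogue called lower under the epithelial scaling, at -2.15 (edgeR adjusted p = 0.0381).

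Other transcription factors with a role in epidermis were looked at in the same way. Of 22 listed, 20 were tested, Pou3f1 and Cebpa rose, none fell (edgeR, 5 higher and 0 lower at an unadjusted p below 0.05; DESeq2 3 higher and 0 lower), and the median log2 fold change was 1.22 with 17 above 0. Pou3f1, a POU-domain factor of differentiating keratinocytes, measured 482, 1167.4 and 264 CPM in NCAM-enriched and 42.2, 59.0 and 55.9 CPM in bulk skin libraries (log2 fold change 3.60 ± 0.59, edgeR adjusted p = 0.0216). Without NCAM-enriched replicate 2, its highest library, the Pou3f1 value was 2.82 (adjusted p = 0.00421). Cebpa, a leucine-zipper factor of suprabasal keratinocytes, measured 391, 236 and 463 CPM against 70.8, 87.5 and 55.4 CPM (log2 fold change 2.35 ± 0.40, edgeR adjusted p = 0.0247). Both exceeded every bulk skin library in each NCAM-enriched library, as the called members did. Rxra, the partner receptor of retinoid and vitamin D receptors, and Satb1, a chromatin organiser, did not pass, at 1.21 ± 0.38 and 1.5 ± 0.57 (edgeR adjusted p = 0.124 and 0.198).

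**Figure D5:**
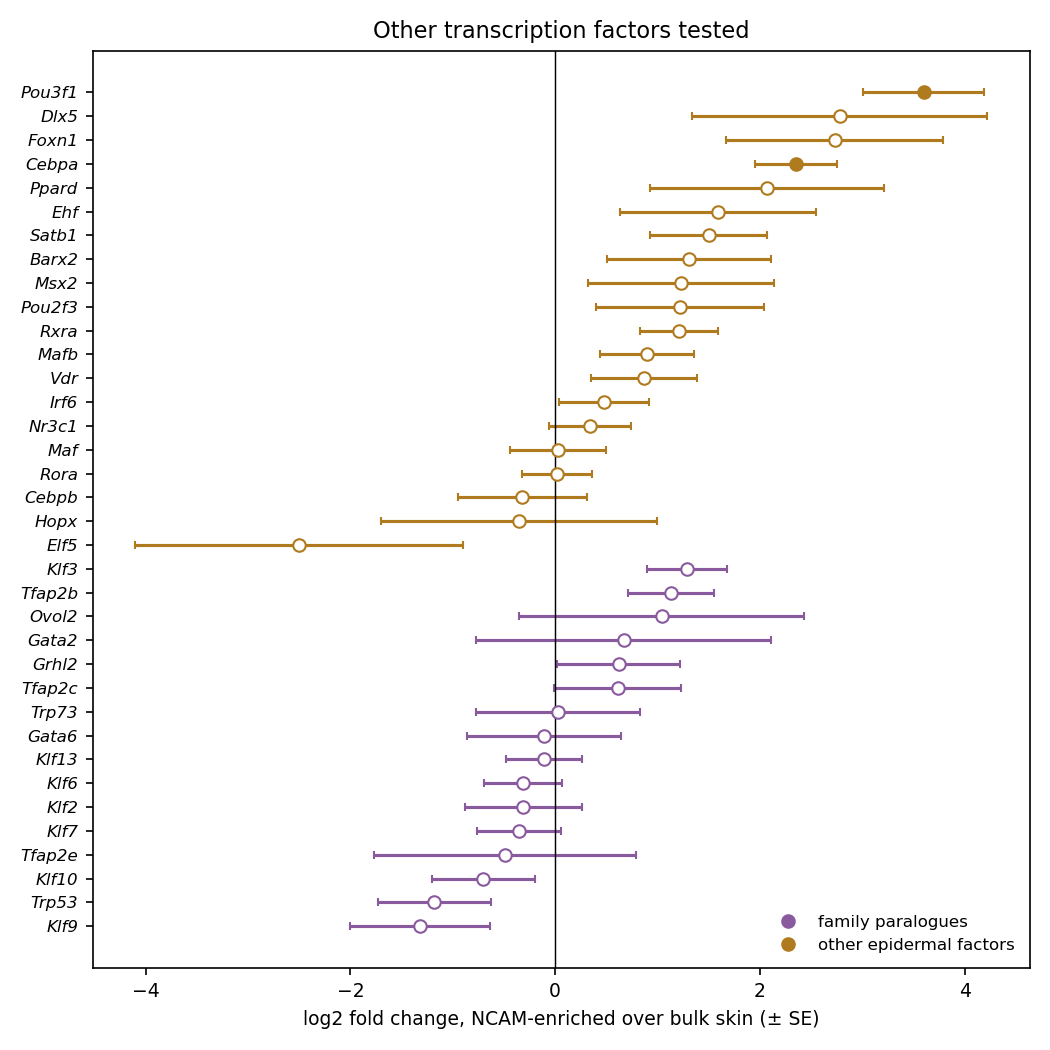
Log2 fold change (NCAM-enriched against bulk skin) with standard error of the tested paralogues and other epidermal transcription factors, filled where the adjusted p was at or below 0.05. Pou3f1 at 3.60 and Cebpa at 2.35 are the filled points, and the paralogues lie on both sides of 0 in this scaling.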

How the data were processed

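The deposited values were raw read counts per gene in the 6 libraries. According to the methods, the authors clipped adapters and removed abundant sequences with bbduk and bbmap, aligned with STAR to GRCm38 and counted with featureCounts, but which annotation release and strand setting they used is not given in the sources used here. Positions and exonic lengths came from GENCODE M21 (54495 of 54532 IDs matched). No library was a copy of another. Here, edgeR 4.0.16 (R 4.3.3; default filter on low counts, TMM factors, quasi-likelihood test, Benjamini-Hochberg adjustment over 13157 genes, threshold 0.05) was the main test, in place of the study's own DESeq2, and CPM were counts scaled to a TMM-adjusted total of 1000000. SE is the log2 fold change divided by the root of F. The scripts were tested on simulated data with a smaller spread between libraries than the real data have. That test checks the code and does not show how many changes were missed here. DESeq2 1.42.0, limma-voom 3.58.1, other scalings, a filter of 1 count, robust dispersion, a replicate block and leaving out each library were alternatives. The leave-one-out values of the ratio to Trp63 were added after seeing the data.

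The members and gene lists were chosen with earlier results of these data known. Named genes were the members, the genes with the smallest p and highest mean CPM of each list, and the 3 genes most like Zfp750 and Klf4. Gata1, Sp6, Gm31166, Epcam, Atoh1 and the 9 epithelial genes used for scaling stand outside that rule, and Gata1, Sp6, Gm31166 and Epcam were named after their values were seen. Counting limits cover counting error only, since reads are PCR copies. Of the remaining marker lists, 0 of 3 tested melanocyte, 0 of 7 fibroblast, 0 of 4 endothelial and 0 of 7 sebaceous genes were called by edgeR (by DESeq2 0, 0, 2 lower and 1 higher; at an unadjusted p below 0.05, 0, 1 lower, 2 lower and 2 higher). Limma-voom called 3 fibroblast and 2 endothelial genes lower, and without NCAM-enriched replicate 2 edgeR called 6 fibroblast genes lower. Of 7 hair follicle genes Krt17 rose and Lgr6 fell by edgeR, and DESeq2 called 2 higher and 2 lower.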

Additional observations from a re-analysis of the deposited data

How the results depend on the processing

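Members called higher numbered 3 and became 5 with DESeq2 (Grhl1 and Gata3 added), 0 scaled to epithelial genes (4 at an unadjusted p below 0.05) and 0 to 5 when 1 library was left out. Over 14 alternatives Zfp750 was called in 10, Grhl3 in 9, Ovol1 in 6, Grhl1 in 5, Gata3 in 2 and Tfap2a in 1, and Klf4, Klf5, Prdm1 and Trp63 in 0.

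Genes called higher over the whole table numbered 137, and 661 by DESeq2, 351 by limma-voom, 70 scaled to epithelial genes, 769 with genes of at least 1 count, and 0 to 1099 without 1 library. Genes called lower numbered 204, and 928, 849, 846 and 741 in the same order, and 13 to 733 without 1 library. Paralogues called higher (0) numbered 1 with DESeq2 or limma-voom and 0 to 1 without 1 library, and 1, Trp53, was called lower scaled to epithelial genes (-2.15). Other epidermal factors (2) numbered 1 scaled to epithelial genes and 0 to 4 without 1 library. Known targets (3) numbered 10 with DESeq2, 7 with limma-voom, 12 with genes of at least 1 count and 0 to 9 without 1 library, and suprabasal genes (10) 0 to 14.

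The direction turned for Trp63 without 1 library (-0.31 to 0.26), for Prdm1 scaled to epithelial genes (-0.22), for Grhl2 without 1 library (-0.02 to 1.01) and for Krt5 (-0.08 with limma-voom, -0.79 scaled to epithelial genes, -0.12 with the replicate block, -0.81 to 0.56 without 1 library). None of these was called in either fit, and the cause was not tested.

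No pairing by replicate number was seen. All correlations of deviations between the groups were near 0, at -0.0175 to 0.0231, so this check cannot decide whether same-numbered libraries were paired. Deviations of same-numbered libraries correlated at 0.0231, 0.000232 and -0.00776, and 1 of 3 NCAM-enriched libraries correlated best with its own number. With the replicate block 50 genes were called higher and 92 lower, 1 member (Zfp750, adjusted p = 0.0351), 1 other epidermal factor and 6 suprabasal genes. With 3 libraries a group and 121 to 580 reads a group for Ovol1, differences smaller than the standard errors were not detectable. Differences of several standard errors could also go uncalled, as for Grhl1 at 2.07 ± 0.47.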

Other observations

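Over the 6 libraries, the genes whose log2 CPM ran closest to Zfp750 were Tmem63b, Ptms and Dsp, with Pearson r of 0.999, 0.999 and 0.997. Dsp, the desmosomal plaque gene, measured 4099.5, 3459.8 and 4529.1 CPM in NCAM-enriched and 658, 1043.7 and 1000.2 CPM in bulk skin libraries. Closest to Klf4 were Sdc1, Ighmbp2 and Rab3d, with r of 0.994, 0.992 and 0.987. These were the highest of 13157 correlations over 6 points that fall into 2 groups, so they describe the pattern only.

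The 9 hair follicle genes summed to 12098.1, 6286.9 and 28801.8 CPM in NCAM-enriched and 2351.3, 2204.7 and 2860.1 CPM in bulk skin libraries. Of the 7 tested, 3 lay above 0 and 4 below. Among them, Krt17, a keratin of the outer root sheath and of stressed epidermis, measured 6876.9, 4913.9 and 17761.3 CPM in NCAM-enriched and 1105.9, 980 and 1232.4 CPM in bulk skin libraries (edgeR adjusted p = 0.0437). Krt79 measured 4951.3, 961 and 10334.2 CPM against 546, 488 and 690 CPM. It did not pass in edgeR (adjusted p = 0.0691), but DESeq2 and limma-voom called it higher. Lgr6, a stem cell marker of the isthmus, measured 23.4, 40.9 and 37.5 CPM against 197, 166 and 248 CPM (edgeR adjusted p = 0.0195).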
